A study of Mus musculus with 107 samples.

Results

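Ezh2 contacts that the libraries of 1 deletion listed and those of the other did not were compared between mouse embryonic stem cell clones lacking an interval of chromosome 9 and clones lacking an interval of chromosome 7. Contacts came from per-library lists of significant interactions made by Ezh2 ChIA-PET, in which chromatin bound by Ezh2 is precipitated after proximity ligation and each contact is supported by a number of paired-end tags (PETs, read pairs that join 2 places). Overlapping anchors were joined across libraries into regions, and a contact was a pair of regions, or a local contact where both anchors fell in 1 region. The 8 libraries held 15435 such contacts, of which 10201 lay outside both deleted intervals and were listed for 1 deletion only. Of these, 3850 were listed in chromosome 9 clones only and 6351 in chromosome 7 clones only, against 5207 listed for both deletions and 27 that touched an interval. A contact missing from a list fell below that list's threshold, the smallest listed value being 3 PETs, and is not shown to be absent. Membership was defined by presence in these lists, so presence is described here and not tested.

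Ezh2 is the catalytic subunit of Polycomb repressive complex 2 (PRC2), which also contains Eed and Suz12 and methylates histone H3 at lysine 27. In embryonic stem cells PRC2 sits at CpG-rich promoters of developmental regulators that are silent or lowly expressed, among them the Hox clusters and genes for homeobox, forkhead, T-box, GATA and Sox transcription factors. Such regions are known to meet one another in the nucleus, within a chromosome arm or across very long distances.

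All lines derived from the B6NJ line of mouse embryonic stem cells, cultured on irradiated fibroblast feeders in serum with PD0325901, a MEK inhibitor, and CHIR99021, a GSK3 inhibitor. Clones F1 and G9 (KO6) lacked chr9:37451506-37461721, and clones D4 and F4 (KO18) lacked chr7:143440438-143450716. Each clone gave 2 Ezh2 libraries, and 2 further libraries came from undeleted B6NJ cells. Each deletion is therefore known from 2 clones, and whether a clone's libraries stem from different cultures is not stated, so a p-value here reflects library-to-library spread alone. RNA was sequenced from the same lines, with 2 libraries of F1 and 3 of each other line. The first library of F1 carried the clone in its title and a parental cell label. In that library no listed contact had an anchor lying inside the chromosome 9 interval, as in the other 3 libraries of the chromosome 9 clones, whereas the libraries of the chromosome 7 clones listed 3, 2, 3 and 5 such contacts. Counting anchors that only touch the interval, the first F1 library listed 2 contacts (10 PETs) and the other 3 listed 0, against 7, 8, 7 and 8 contacts in the chromosome 7 clones. For the chromosome 7 interval the clones changed places, with 0 contacts anchored inside in each chromosome 7 library and 7, 3, 2 and 2 in the chromosome 9 libraries; contacts touching it numbered 5, 2, 3 and 0 against 9, 4, 4 and 3. No RefSeq protein-coding gene overlaps either interval. The nearest are Robo3, an axon guidance receptor, 18.1 kb from the chromosome 9 interval, and Cdkn1c, an imprinted inhibitor of the cell cycle, 7.62 kb from the chromosome 7 interval.

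The promoters of 8 genes at the contacts on which the results turn are shown from RefSeq on GRCm38.p6, 250 bases before to 50 bases after the annotated start, with every CG dinucleotide in capitals. Dmrta2 and Foxd2, transcription factors of the DM-domain and forkhead families, lie at opposite ends of a contact listed in all 4 chromosome 7 libraries and in no chromosome 9 library (chr4:109977775-109978074, plus strand, and chr4:114908849-114909148, minus strand).
Dmrta2: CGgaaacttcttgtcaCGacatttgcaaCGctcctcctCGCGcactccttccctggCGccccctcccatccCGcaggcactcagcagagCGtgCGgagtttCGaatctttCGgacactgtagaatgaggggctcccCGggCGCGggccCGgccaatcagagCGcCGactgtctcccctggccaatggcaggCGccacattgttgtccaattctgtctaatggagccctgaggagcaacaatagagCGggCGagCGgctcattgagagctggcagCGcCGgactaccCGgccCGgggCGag
Foxd2: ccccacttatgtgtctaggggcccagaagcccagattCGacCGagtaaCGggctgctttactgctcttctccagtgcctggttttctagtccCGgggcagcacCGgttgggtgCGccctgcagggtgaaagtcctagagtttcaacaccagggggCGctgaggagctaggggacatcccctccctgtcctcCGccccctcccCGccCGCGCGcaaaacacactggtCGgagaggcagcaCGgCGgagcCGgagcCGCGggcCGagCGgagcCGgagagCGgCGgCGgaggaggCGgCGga
Lhx2, a LIM-homeobox factor of forebrain, eye and limb, and Hoxd13, the last gene of the Hoxd cluster, lie at the ends of the strongest such contact over more than 10 Mb (chr2:38339031-38339330 and chr2:74667975-74668274, both plus strand).
Lhx2: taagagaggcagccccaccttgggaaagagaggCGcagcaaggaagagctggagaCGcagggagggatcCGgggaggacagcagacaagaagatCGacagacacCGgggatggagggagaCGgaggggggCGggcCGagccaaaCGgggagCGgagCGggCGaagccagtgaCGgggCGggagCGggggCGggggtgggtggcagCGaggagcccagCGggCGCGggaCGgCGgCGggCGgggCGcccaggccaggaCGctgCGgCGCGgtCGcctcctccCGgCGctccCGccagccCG
Hoxd13: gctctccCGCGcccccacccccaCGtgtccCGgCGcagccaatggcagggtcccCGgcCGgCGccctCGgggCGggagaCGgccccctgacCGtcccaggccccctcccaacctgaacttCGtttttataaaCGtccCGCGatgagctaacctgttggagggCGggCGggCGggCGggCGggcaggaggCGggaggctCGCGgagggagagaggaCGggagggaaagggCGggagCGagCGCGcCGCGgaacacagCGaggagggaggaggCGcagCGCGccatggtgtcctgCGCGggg
Gfi1b, a repressor of blood cell development, and Barhl1, a homeobox factor of the inner ear and cerebellum, lie at the ends of a contact listed in all 4 chromosome 9 libraries only (chr2:28621933-28622232 and chr2:28916619-28916918, both minus strand).
Gfi1b: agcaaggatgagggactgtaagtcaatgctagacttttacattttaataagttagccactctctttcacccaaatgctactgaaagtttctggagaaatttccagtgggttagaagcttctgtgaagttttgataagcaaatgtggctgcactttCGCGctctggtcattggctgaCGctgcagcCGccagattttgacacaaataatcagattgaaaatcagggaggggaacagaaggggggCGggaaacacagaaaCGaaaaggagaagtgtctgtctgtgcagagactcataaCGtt
Barhl1: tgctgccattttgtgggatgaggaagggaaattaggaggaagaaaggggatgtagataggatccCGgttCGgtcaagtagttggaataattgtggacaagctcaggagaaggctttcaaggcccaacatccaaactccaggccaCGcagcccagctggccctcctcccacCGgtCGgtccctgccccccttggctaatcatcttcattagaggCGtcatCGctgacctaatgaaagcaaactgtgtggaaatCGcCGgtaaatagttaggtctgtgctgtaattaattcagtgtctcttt
Tie1, an endothelial receptor tyrosine kinase, and Tmem125, which encodes a transmembrane protein, lie in the pair of regions whose PETs differed between the deletions (chr4:118489800-118490099 and chr4:118543677-118543976, both minus strand).
Tie1: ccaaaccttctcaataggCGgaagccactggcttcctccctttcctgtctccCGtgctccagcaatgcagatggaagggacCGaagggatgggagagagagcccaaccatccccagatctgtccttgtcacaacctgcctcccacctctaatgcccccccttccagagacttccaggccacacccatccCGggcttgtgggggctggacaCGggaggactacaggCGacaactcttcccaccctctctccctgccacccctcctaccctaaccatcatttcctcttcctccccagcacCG
Tmem125: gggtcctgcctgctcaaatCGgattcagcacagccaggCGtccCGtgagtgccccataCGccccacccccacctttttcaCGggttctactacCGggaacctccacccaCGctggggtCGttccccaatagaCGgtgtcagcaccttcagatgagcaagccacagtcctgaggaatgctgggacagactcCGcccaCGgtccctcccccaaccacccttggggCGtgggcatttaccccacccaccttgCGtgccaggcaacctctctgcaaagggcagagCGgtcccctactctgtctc
The Dmrta2, Foxd2, Lhx2 and Hoxd13 windows held 26, 26, 34 and 37 CG dinucleotides and overlapped both a PRC2 peak and an H3K27me3 peak of E14 embryonic stem cells. The Gfi1b, Barhl1, Tie1 and Tmem125 windows held 7, 9, 7 and 14; the Barhl1 window overlapped both kinds of peak, the Gfi1b and Tmem125 windows a PRC2 peak only, and the Tie1 window neither. Over all 32851 promoters in the table the median was 7 CG dinucleotides, 94.6% held at least 1, 15.7% overlapped a PRC2 peak and 5.21% an H3K27me3 peak. Among the 5170 promoters with a PRC2 peak 32.6% overlapped an H3K27me3 peak, and the median was 20. Inside the anchor regions of contacts listed in 4 of 4 chromosome 7 libraries and 0 of 4 chromosome 9 libraries, 84 of 132 promoters overlapped a PRC2 peak and 56 an H3K27me3 peak, with a median of 14.5 CG dinucleotides. The Dmrta2, Foxd2, Lhx2 and Hoxd13 windows lay at or above the upper quartile of these promoters, 26. Promoters at the contact of the Pcdha cluster with Pcdhb2 to Pcdhb4, clustered protocadherin genes, were left out of this set. For the contacts listed in 4 of 4 chromosome 9 libraries only, 6 of 14 promoters overlapped a PRC2 peak and 2 an H3K27me3 peak, with a median of 8.5. All listed anchors overlapped a PRC2 peak, so the overlap with PRC2 describes the lists and not the deletions.

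The lists differed in size between libraries. Libraries of F1 listed 371575 and 585001 PETs in 7104 and 7940 contacts, and those of G9 753484 and 720397 PETs in 6619 and 6122 contacts. Those of D4 listed 1324715 and 1243829 PETs in 9354 and 8316 contacts, and those of F4 1157422 and 323529 PETs in 9216 and 6987 contacts. The second F4 library stood below its group and below every chromosome 9 library in PETs. Chromosome 9 libraries listed 6946 ± 774 contacts (SD, n = 4) and chromosome 7 libraries 8468 ± 1089, a difference that did not pass an exact two-sided permutation test (p = 0.0857, the smallest possible being 0.0286). Median span was 53.2 and 76.9 kb in F1, 23.3 and 17.6 kb in G9, 100.1 and 74.3 kb in D4 and 90.6 and 86.3 kb in F4; it did not pass on a log10 scale (p = 0.0571, exact). The second F1 library lay within the range of the chromosome 7 clones, the first F1 library and both of G9 lay below it, and the parental libraries, at 16.7 and 114.6 kb, lay outside the range on either side. The X chromosome held 0.422% ± 0.0701 and 0.431% ± 0.0438 of PETs (SD, n = 4 each, p = 0.8286, exact). Contacts with an H3K27me3 peak at both anchors, counted after the overlap with PRC2 peaks proved complete, made up 39.7% ± 1.32 and 40.3% ± 0.869 (SD, n = 4 each, p = 0.543, exact).

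**Figure D1:**
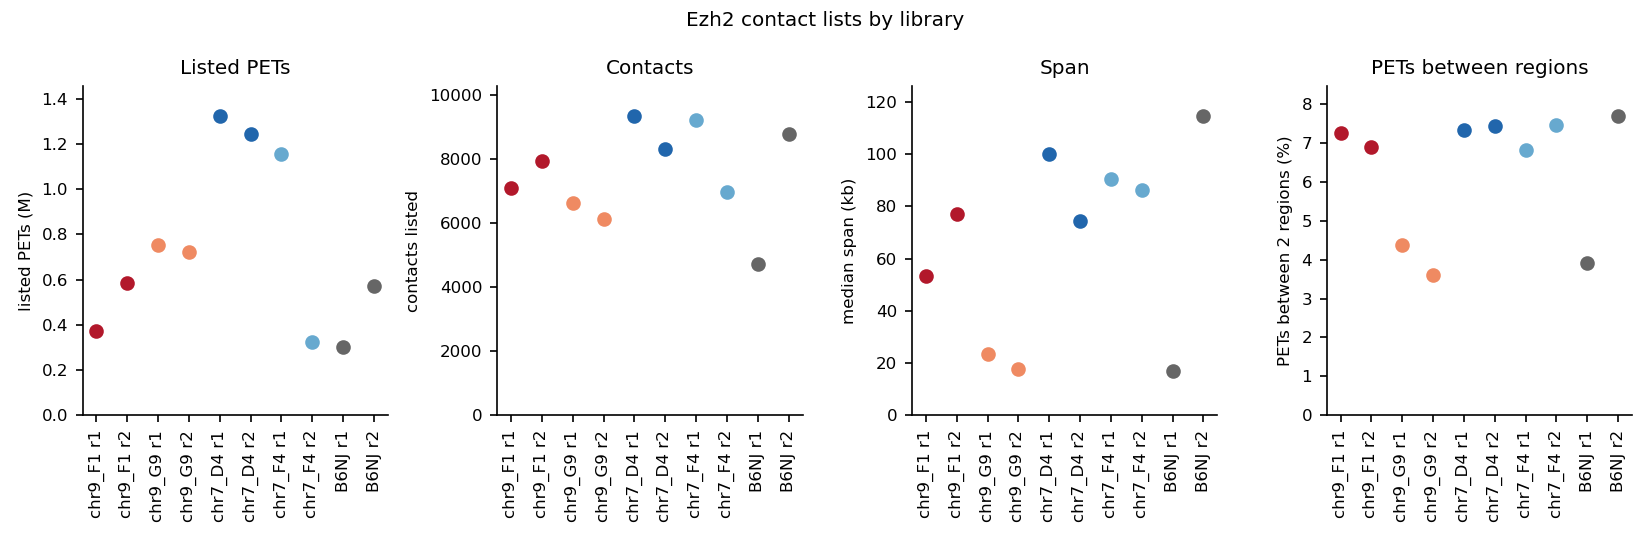
Listed PETs (M, 1000000), contacts listed, median span (kb) and the share of PETs joining 2 different regions (%), 1 point per library, coloured by clone. G9 and the first parental library have short spans and few PETs between regions (3.61% to 4.38%), and the second F4 library has few PETs (323529).

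Most contacts listed for 1 deletion only were listed in a single library. Among the chromosome 9 contacts, 3555 were in 1 library, 256 in 2, 36 in 3 and 3 in all 4. Among the chromosome 7 contacts, 5488 were in 1 library, 665 in 2, 169 in 3 and 29 in all 4. In single-library contacts the median support was 4 and 3 PETs, against 135 PETs in the 1208 contacts listed in all 8 libraries. The single-library contacts were widely spaced, with 36.1% of the chromosome 9 and 37.8% of the chromosome 7 contacts between regions spanning more than 2 Mb, and 17.9% of the 28 in all 4 chromosome 7 libraries did so.

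Readouts outside the membership rule were mostly higher in contacts listed by more libraries. Anchors of the parental libraries were joined with the others into regions, so the parental share is not fully independent of the members. A parental B6NJ library listed 6.02%, 16.4%, 33.3% and 33.3% of the chromosome 9 contacts found in 1, 2, 3 and 4 libraries, and 6.51%, 19.7%, 42.6% and 51.7% of the chromosome 7 contacts. The pooled E14 PRC2 contact list of the study held 19.5%, 50.8%, 63.9% and 33.3% of the chromosome 9 contacts and 16.2%, 42.4%, 65.1% and 62.1% of the chromosome 7 contacts. For the contacts in all 8 libraries these shares were 98.2% and 98.8%. Both anchor regions overlapped an E14 H3K27me3 peak in 29.0%, 32.8%, 30.6% and 33.3% of the chromosome 9 contacts and in 32.5%, 39.4%, 50.9% and 51.7% of the chromosome 7 contacts, against 92.1% of contacts in all 8 libraries. The H3K27me3 share differed little between the chromosome 9 groups, the last of which holds 3 contacts, and rose in steps among the chromosome 7 contacts. The median width of the regions rose as well among the chromosome 7 groups, at 17.79, 23.63, 34.39 and 45.03 kb. It was 13.42, 12.77, 13.94 and 31.18 kb in the chromosome 9 groups and 66.18 kb for contacts in all 8 libraries. The part of region width in these shares was not tested.

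**Figure D2:**
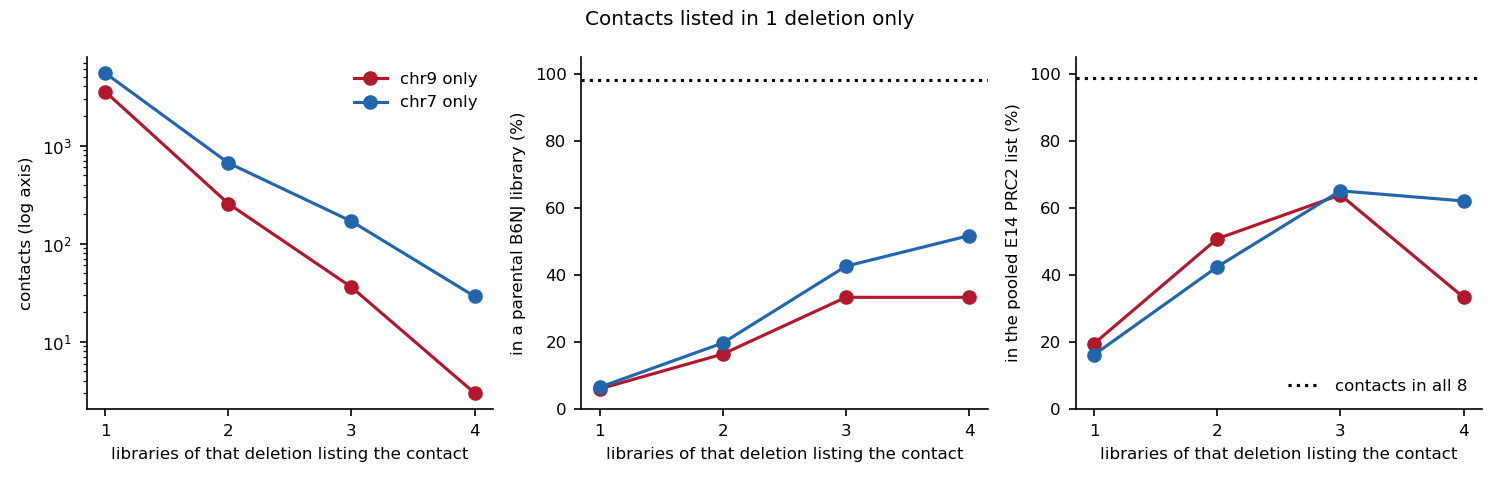
Contacts listed for 1 deletion only, by the number of that deletion's libraries that listed them: their count on a log axis, and the share (%) also listed in a parental library or in the pooled E14 list. Dotted lines mark contacts listed in all 8 libraries (98.2% and 98.8%); the point for 4 chromosome 9 libraries rests on 3 contacts.

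The contacts listed in every library of 1 deletion and none of the other were 3 for the chromosome 9 clones (0.088% of 3410 contacts listed in at least 4 of the 8 libraries) and 29 for the chromosome 7 clones (0.85%). Of the 29, 28 joined different regions and 13 of these had an anchor region with a gene of 1 or more of the 10 gene lists used here, as did 551 (35.6%) of the 1547 tested contacts between regions. They spanned from 27.3 kb to 47.1 Mb, with 5 over 2 Mb and 4 over 10 Mb. At just under this threshold, 169 contacts were listed in 3 chromosome 7 libraries and 36 in 3 chromosome 9 libraries.

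The long-range contacts joined regions of transcription factor genes. The contact of the Faf1 and Dmrta2 region with the Foxd2, Foxe3, Cmpk1 and Stil region, 4.83 Mb away on chromosome 4, had 17 and 16 PETs in D4 and 21 and 20 in F4, with 0 and 6 in the parental libraries. All 4 chromosome 7 libraries were alike in PETs, including the one with the fewest listed, and the E14 list held the contact with 84 PETs. Per 1000000 listed PETs the chromosome 7 libraries were at 12.8, 12.9, 18.1 and 61.8, the second of F4 being the highest. Both regions had local contacts in every library, at 1356 to 2443 PETs per 1000000 listed PETs in the chromosome 9 libraries and 1649 to 2581 in the chromosome 7 libraries around Dmrta2, and at 4028 to 5493 against 7085 to 8119 around Foxd2. Local contacts around Dmrta2 overlapped between the deletions and those around Foxd2 did not.

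The contact of the Lhx2 region with the Hoxd cluster, 36.3 Mb away on chromosome 2 (chr2:38156238-38544102 and chr2:74550588-74840756), had 13 and 4 PETs in D4, 14 and 29 in F4, and 0 and 4 in the parental libraries. It was highest in the library with the fewest listed PETs, and the E14 list held it with 12 PETs. The Hoxd cluster, which patterns limbs and the body axis, also met the region of Alx4, a homeobox gene of skull and limb, at 18.9 Mb with 3, 4, 3 and 6 PETs. Local contacts of the Hoxd region were among the strongest, at 13110 to 27590 PETs per 1000000 listed PETs in the chromosome 9 libraries and 19790 to 38360 in the chromosome 7 libraries, which overlapped. The other contacts over 10 Mb were between the region nearest Osr1, a regulator of kidney and heart mesoderm, and Nkx2-1, a factor of lung, thyroid and forebrain (47.1 Mb; 3, 4, 5 and 3 PETs), and between the Foxb1 region and Zic1 with Zic4, zinc-finger genes of the cerebellum (21.6 Mb; 5, 3, 4 and 3 PETs). Most of these counts lay at or just above the smallest listed value.

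Shorter contacts listed in all 4 chromosome 7 libraries involved genes of several kinds. Tcf21 and Eya4, a helix-loop-helix factor of heart and kidney and a transcriptional coactivator, were joined across 526 kb by 11, 9, 8 and 20 PETs, with 72 PETs in E14. Gadd45g, a stress-response gene, contacted a neighbouring region at 64.3 kb with 9, 25, 20 and 6 PETs. In both, the chromosome 9 libraries listed nothing and 1 parental library listed the contact.

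The contact with the most PETs in sum was local to Gpr26, which encodes an orphan receptor of the brain, with 70 and 30 PETs in D4 and 82 and 3 in F4. It fell at the smallest listed value in the second F4 library, and neither parental library listed it, while the E14 list held 65 PETs. Foxf2, a forkhead gene of mesenchyme, contacted a region nearest Foxq1 with 56, 3, 15 and 3 PETs, Rfx4, a regulator of cilia and brain ventricles, had an internal contact with 5, 8, 47 and 4, and Sox21, a neural progenitor factor, contacted Gpr180 with 31, 4, 6 and 8. Support in these 3 was dominated by a single library. Fgf9, a growth factor of lung and gonad, was more even, with 7, 8, 8 and 7 PETs to a region in Micu2 and 9 in the second parental library. A region holding Iffo2, Aldh4a1, Tas1r2 and Pax7, a muscle stem cell factor, contacted a neighbouring region in Iffo2 with 12, 22, 6 and 4 PETs. The region around Prdm14, a pluripotency and germ cell regulator, had 12, 4, 14 and 5 PETs to a neighbouring region, and the Pcdha cluster contacted Pcdhb2 to Pcdhb4, clustered protocadherins of neuronal identity, with 6, 9, 6 and 3. No parental library listed the contacts of the Pax7 region, the Prdm14 region and the protocadherins.

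**Figure D3:**
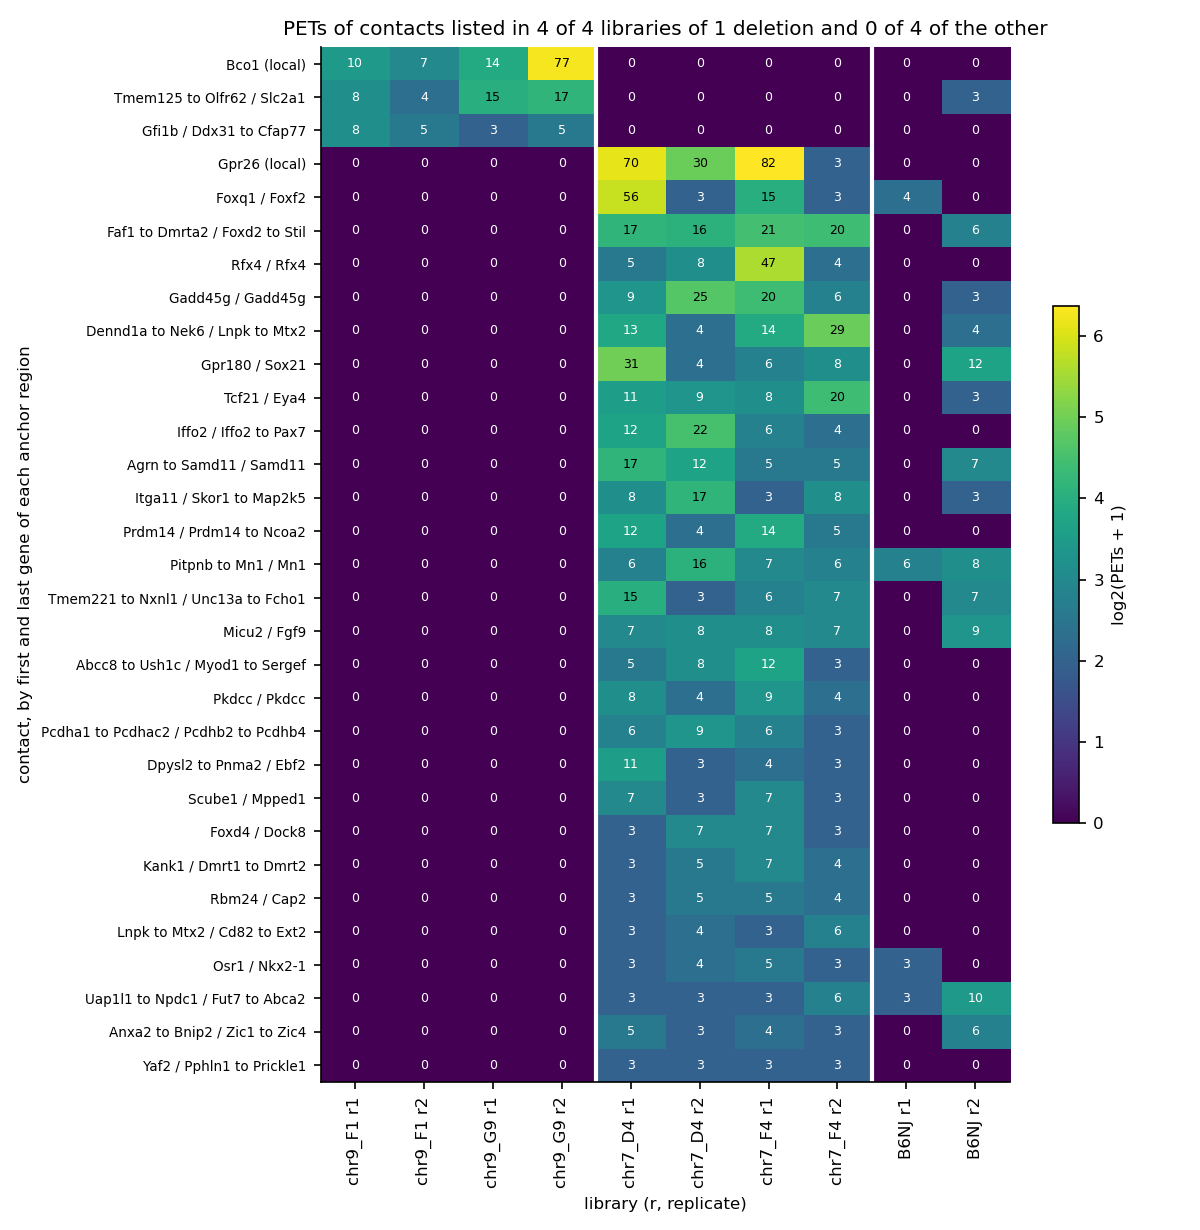
PETs (number in each cell, colour as log2(PETs + 1)) of the 3 contacts listed in all 4 chromosome 9 libraries only and 28 of the 29 listed in all 4 chromosome 7 libraries only, in each of 10 libraries. Rows are named by the first and last gene of each anchor region; a 0 means not listed. In the chromosome 7 libraries the Gpr26 contact ranges from 3 to 82 PETs and the Dmrta2 contact from 16 to 21.

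The number of such contacts moved with the PETs listed. With every list thinned at random, once, to 323529 PETs, an alternative added after the list sizes had been seen, 9 contacts were listed in all 4 chromosome 9 libraries only and 4 in all 4 chromosome 7 libraries only, so the order of the deletions turned. After thinning, the chromosome 9 libraries listed 6256, 4681, 3749 and 3697 contacts and the chromosome 7 libraries 3230, 3387, 3434 and 6987. Of the 29 chromosome 7 contacts 2 were still in all 4 libraries, those of Gpr26 and Gadd45g. The second F4 library, smaller than any chromosome 9 library, listed 18 of the 29 with more than 3 PETs and 3 with at least 10, at a median of 4. Without that library the counts were 4 for the chromosome 9 and 123 for the chromosome 7 clones.

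The 3 contacts listed in all 4 chromosome 9 libraries only were of different kinds. A local contact at Bco1, a beta-carotene oxygenase gene (chr8:117109360-117140541), had 10 and 7 PETs in F1 and 14 and 77 in G9, no parental support and 25 PETs in the E14 list. The Tmem125 to Olfr62 region of chromosome 4 contacted a region nearest Slc2a1, a glucose transporter gene, 485 kb away with 8, 4, 15 and 17 PETs, and 3 PETs in 1 parental library. Gfi1b and the Ddx31, Barhl1 and Cfap77 region were joined across 294 kb by 8, 5, 3 and 5 PETs, with none in the parental or E14 lists. After thinning, the Bco1 and Tmem125 contacts were still in all 4 chromosome 9 libraries only, and the Gfi1b contact was not.

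Where a library did not list a contact, 0 PETs were entered. PETs per contact were then compared by edgeR's quasi-likelihood test over 3417 contacts listed in at least 4 libraries. It called 3 contacts higher (0.0878% of those tested) and 0 lower in the chromosome 9 clones at an adjusted p under 0.05; 215 had an unadjusted p under 0.05, and DESeq2 called 22 higher and 27 lower. Of the 3, 1 touched the chromosome 7 interval, and the other 2 lay in adjoining regions of chromosome 4 and were listed for both deletions. They were chr4:118197385-118491946, whose genes include Ptprf, Med8, Elovl1, Cdc20 and Tie1, and chr4:118496426-118674626, which holds Tmem125, Cfap57, Ebna1bp2 and Olfr62.

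Between these regions F1 had 4392 and 4007 PETs, G9 9280 and 5991, D4 4492 and 2844, F4 2816 and 868, and the parental line 770 and 2080. Per 1000000 listed PETs this was 9825 ± 2666 in the chromosome 9 libraries (SD, n = 4), 2698 ± 490 in the chromosome 7 libraries, and 2552 and 3625 in the parental libraries. Every chromosome 9 library, from 6850 to 12320, lay above every chromosome 7 library, from 2286 to 3391, and above both parental libraries. The log2 difference was 1.70 ± 0.23 (SE, edgeR adjusted p = 0.0362). The local contact of the Tmem125 region behaved alike, with 4599, 3560, 8415 and 5774 PETs against 3925, 3142, 3405 and 1148 (log2 1.49 ± 0.23, edgeR adjusted p = 0.0467). Over 16 alternatives the log2 difference stayed between 1.59 and 1.87 for the contact between the regions and between 1.33 and 1.66 for the local one, and it kept its side of the threshold in 8 and 6 of them; with the libraries of each clone summed the edgeR adjusted p was 0.849 for both. Leaving out any 1 library other than the second of F1 ended both calls, with edgeR adjusted p-values of 0.0606 to 0.336.

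All 30 tested contacts of these regions had a higher fitted value in the chromosome 9 clones, with a median log2 difference of 1.86, and in 11 of them every chromosome 9 library lay above every chromosome 7 library per 1000000 listed PETs, beside 119 (3.49%) of all 3410 tested contacts outside the intervals. Both the 30 and the 11 include the 2 called contacts by which the regions were chosen. The 11 also include the contact with the region nearest Slc2a1, which was listed for chromosome 9 clones only and could not overlap by the rule. The contact with the Slc6a9 to St3gal3 region, 687 kb away, had 127, 118, 937 and 212 PETs against 47, 56, 60 and 15, and 20 and 36 in the parental line (log2 3.37 ± 0.61, edgeR adjusted p = 0.105). The contact with the Lao1 region, 385 kb away, had 133, 110, 281 and 111 PETs against 96, 32, 107 and 31. The contact with Hivep3, a zinc-finger gene 1.46 Mb away, had 17, 29, 133 and 43 PETs against 17, 11, 7 and 8. These 3 contacts, and the pooling of all contacts of the regions, were chosen after their values were seen. The first G9 library was the highest in each. Every chromosome 9 library lay above every chromosome 7 library in all 3 contacts per 1000000 listed PETs, while in PETs the Hivep3 contact tied at 17.

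Together the regions held 2.60%, 1.38%, 2.68% and 1.78% of listed PETs in the chromosome 9 libraries, 0.669%, 0.503%, 0.573% and 0.667% in the chromosome 7 libraries, and 0.687% and 0.812% in the parental libraries. The chromosome 7 and parental libraries were close to each other, and the chromosome 9 libraries stood apart. All of chromosome 4 held 7.03% to 8.35% of PETs in the chromosome 9 libraries and 6.25% to 6.93% in the chromosome 7 libraries, which did not overlap. The shares of chromosomes 1, 2, 6 and 13 did not overlap either (exact p = 0.0286, adjusted p = 0.114 over 20 chromosomes for each of the 5). Without these regions chromosome 4 held 5.25% to 5.97% and 5.58% to 6.26%, which overlapped.

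**Figure D4:**
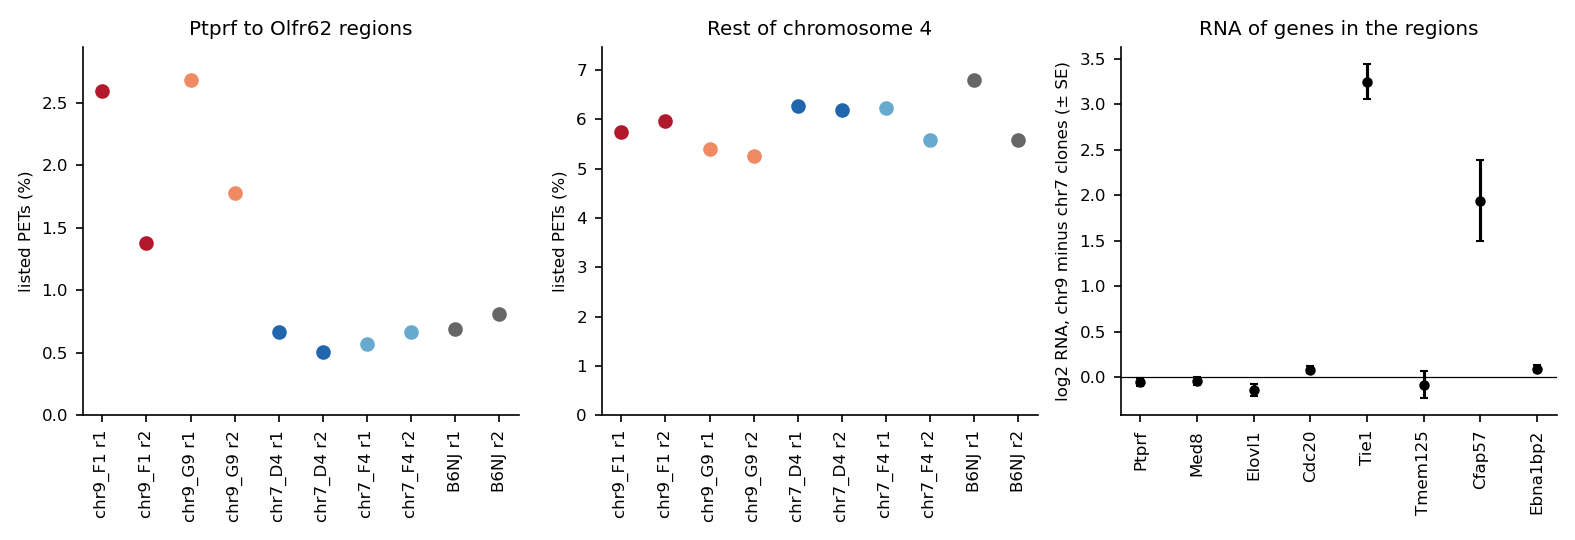
Share of listed PETs (%) in contacts of the Ptprf to Olfr62 regions and in the rest of chromosome 4, 1 point per library coloured by clone, and log2 RNA difference of 8 genes of the regions (± SE). The chromosome 9 libraries sit at 1.38% to 2.68% at the regions and all others at 0.503% to 0.812%. The regions were chosen by the 2 called contacts, which these shares include. The rest of the chromosome overlaps between deletions.

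RNA of the genes in these regions was measured separately. Across 19993 tested genes 39.4% were called higher and 31.1% lower in the chromosome 9 clones (edgeR on counts, adjusted p under 0.05), with 13.7% and 8.8% called at a fold of at least 2, so a call alone says little about a gene. RNA libraries of the chromosome 9 clones held 90.3 to 127.8 M counts (M, 1000000) and those of the chromosome 7 clones 41.3 to 53.3 M, and depth and deletion cannot be told apart. Of 9 tested genes of the regions, 3 were called higher and 0 lower. Tie1 was at 6.05 ± 0.414 CPM (counts per 1000000 counted reads; SD, n = 2) in F1, 2.57 ± 0.202 (n = 3) in G9, 0.364 ± 0.0904 in D4, 0.479 ± 0.161 in F4 and 1.60 ± 0.169 in the parental line (log2 3.25 ± 0.20, edgeR adjusted p = 7.68e-16). The parental line lay between the deletions. Cfap57, a cilia gene, was low throughout, at 0.598 and 0.333 CPM in F1 and G9 and 0.149 and 0.0855 CPM in D4 and F4 (log2 1.94 ± 0.44, edgeR adjusted p = 2.64e-04). Ebna1bp2, a ribosome assembly factor, differed by log2 0.09 ± 0.04 (edgeR adjusted p = 0.0261), a call lost under 9 alternatives. Ptprf, the most abundant gene of the regions and a receptor phosphatase, was at 253 ± 1.65, 209 ± 17.5, 238 ± 9.94 and 238 ± 13.6 CPM in F1, G9, D4 and F4 and was not called (edgeR adjusted p = 0.231).

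Contacts between regions and local contacts differed in direction over the whole table. Among 3410 tested contacts outside the intervals, the median log2 difference was -0.60 for 1547 contacts between regions and 0.21 for 1863 local contacts. Unlisted contacts entered as 0 PETs, so these medians also reflect list thresholds and list sizes. Contacts listed in all 8 libraries hold no such 0. Their medians per 1000000 listed PETs were -0.72 for 241 contacts between regions and 0.21 for 967 local contacts. Per 1000000 listed PETs, every chromosome 9 library lay above every chromosome 7 library in 119 contacts (3.49%) and below in 120 (3.52%). Between regions it was below in 6.14% and above in 2%, and in local contacts below in 1.34% and above in 4.72%. The 3 and 29 contacts listed in every library of 1 deletion only are counted among these. By the rule they could not overlap. In the 241 contacts between regions that all 8 libraries listed, the median log2 difference from the chromosome 7 libraries was -0.22 and -0.11 for the F1 libraries and -1.11 and -1.26 for the G9 libraries. The lower values were thus mainly those of G9. PETs joining different regions made up 7.26% and 6.91% of all PETs in F1, 4.38% and 3.61% in G9, 6.83% to 7.46% in the chromosome 7 libraries, and 3.91% and 7.70% in the parental libraries. F1 lay within the range of the chromosome 7 clones, and 1 parental library was as low as G9.

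Contacts between regions were lower for the lists of developmental transcription factors than for all contacts. Between regions the median log2 difference was -0.96 for 46 contacts with Hox genes, -0.94 for 299 with other homeobox genes, -1.11 for 122 with forkhead, T-box, GATA or Sox genes, and -0.55 for 68 with signalling genes, beside -0.60 for all. Every chromosome 9 library lay below in 6.52% of the Hox contacts (3), 10% of the homeobox contacts (30), 9.02% of the forkhead, T-box, GATA and Sox contacts (11) and 8.82% of the signalling contacts (6), beside 6.14% of all contacts between regions. It lay above in 0, 1, 1 and 1 of them, beside 2% of all, and no contact of these lists was called by edgeR. Contacts listed in all 4 chromosome 7 libraries only, which could not overlap by the rule, made up 2, 5, 5 and 1 of those below. Over all contacts between regions they were 28 of 95, so these shares partly restate the rule. The homeobox contact above was likewise listed for chromosome 9 clones only. The medians include such contacts as well, with 0 PETs entered for each library that did not list them. Of the 92 contacts between regions that all 8 libraries listed and that carried a Hox, homeobox, forkhead, T-box, GATA or Sox gene, 63 were lower in F1 and 84 in G9 than in the chromosome 7 mean, with medians of -0.37 and -1.85. These are 68.5% and 91.3%, beside 58.5% and 80.5% of all 241 contacts between regions that all 8 libraries listed. Local contacts of clustered protocadherins had a median of 0.53 over 10, of which 4 had every chromosome 9 library above, beside 0.21 and 4.72% for all local contacts, and the median was -0.21 over 35 contacts between regions. Imprinted genes had 0.39 over 10 contacts between regions, PRC2 subunit genes -0.24 over 5, primitive endoderm markers -0.70 over 14, and feeder and pluripotency markers -2.26 and -1.85 over 3 each. Contacts share anchor regions, so these counts are descriptions.

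Several strong contacts between regions were lower in every chromosome 9 library per 1000000 listed PETs, although none passed the adjusted test; they were chosen after their values were seen. Pax3, a neural crest and muscle factor, contacted Sgpp2 with 19, 41, 17 and 31 PETs in the chromosome 9 libraries, 384, 586, 355 and 26 in the chromosome 7 libraries and 18 and 45 in the parental libraries (log2 -2.78 ± 0.63, edgeR adjusted p = 0.314). Msx1, a homeobox gene of tooth and limb, and the Stx18 region were joined by 0, 10, 27 and 9 against 569, 662, 259 and 17 PETs, with 0 and 25 in the parental libraries (log2 -4.37 ± 1.01, edgeR adjusted p = 0.314). In both the second F4 library and the parental libraries were near the chromosome 9 libraries in PETs. The region from Bub1b to Disp2 and that of Bahd1, a heterochromatin protein gene, carry no gene of the lists. They were joined by 63, 115, 64 and 56 against 656, 917, 512 and 71 PETs, with 55 and 209 in the parental libraries (log2 -1.999 ± 0.49, edgeR adjusted p = 0.314). Tfap2d and Tfap2b, which encode AP-2 factors, were joined by 78, 204, 59 and 78 against 759, 645, 650 and 249 PETs, with 45 and 176 in the parental libraries (log2 -1.85 ± 0.47, edgeR adjusted p = 0.370). Lhx2 and the Nr5a1 and Nr6a1 region, which holds nuclear receptor genes, had 54, 100, 46 and 37 against 420, 462, 414 and 98, with 73 and 253 in the parental libraries (log2 -1.81 ± 0.49, edgeR adjusted p = 0.370). For Tfap2d and Tfap2b the parental values per 1000000 listed PETs, 149 and 307, lay inside the chromosome 9 range of 78.3 to 349, and for Lhx2, at 242 and 441, above the chromosome 9 range of 51.4 to 171.

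**Figure D5:**
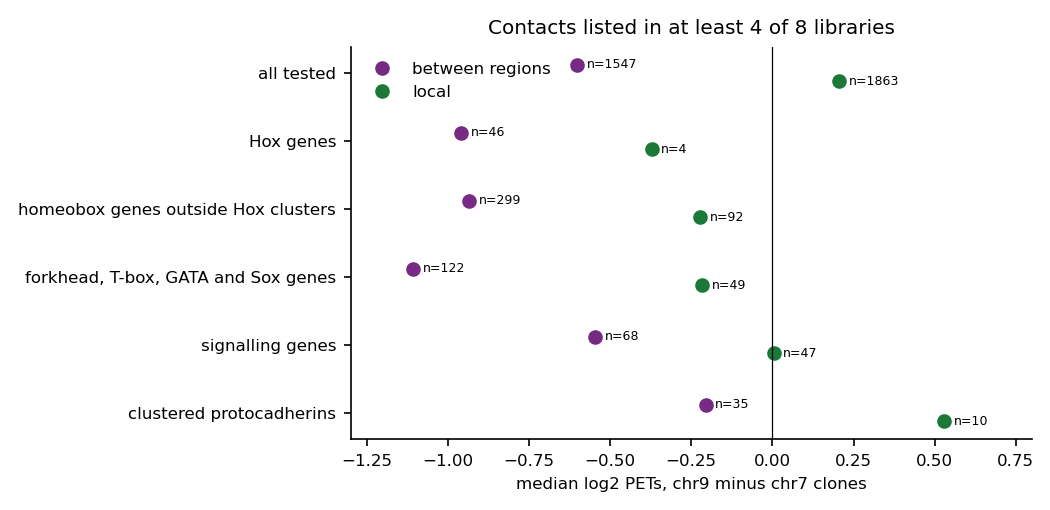
Median log2 difference in PETs, chromosome 9 minus chromosome 7 clones, of tested contacts between regions and of local contacts (n, number of contacts), for all contacts and for those whose anchor regions carry genes of the 5 lists shown. In these, contacts between regions lie at -1.11 to -0.21 and local contacts at -0.37 to 0.53. A contact that a library did not list was entered as 0 PETs.

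Gene lists were also counted over all listed contacts. Of 15408 contacts outside the intervals 25% were listed for chromosome 9 clones only and 41.2% for chromosome 7 clones only. The shares were 24.4% and 44.6% of 242 contacts with Hox genes, 21.6% and 47.7% of 1835 with other homeobox genes, 20.5% and 47.8% of 751 with forkhead, T-box, GATA or Sox genes, and 24.2% and 41.5% of 509 with signalling genes. They were 22.4% and 37.6% of 85 with imprinted genes, 21.3% and 28.7% of 108 with clustered protocadherins, and 15.8% and 31.6% of 19 with PRC2 subunit genes. Pluripotency genes had 31.2% and 37.5% of 32, feeder fibroblast markers 9.68% and 38.7% of 31, and primitive endoderm markers 14.9% and 50% of 94.

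Further members with the most PETs of each list were supported unevenly. Barx1, a homeobox gene of the stomach and teeth, had 117 and 92 PETs to Wnk2 in the first libraries of D4 and F4 and none in their second ones. Nkx6-1, a motor neuron and pancreas factor, had 4 and 131 in D4 only, and Foxa1, a forkhead pioneer factor, had 3, 54, 8 and 0 to Mipol1. The Hoxd cluster met Lmx1b, a limb and kidney factor 41.1 Mb away, with 0, 6, 12 and 15 PETs and Nr4a2, a nuclear receptor of dopamine neurons 17.6 Mb away, with 0, 6, 4 and 17, and Hoxb genes met Tbx2 and Tbx4 at 10.51 Mb with 6, 0, 12 and 4. All were listed for chromosome 7 clones only. Among imprinted genes the contact of Mest was listed for chromosome 9 clones only, with 0, 8, 5 and 3 PETs, whereas Grb10 and Ikzf1, with 6, 7, 3 and 0, and Ndn and Magel2, with 7, 0, 5 and 0, were listed for chromosome 7 clones only. Each of these was absent from at least 1 library of its own deletion.

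Near the deleted intervals no contact met the strict criterion. Within 1 Mb of the chromosome 9 interval 13 contacts were listed for chromosome 9 clones only, 7 for chromosome 7 clones only and 7 for both; within 1 Mb of the chromosome 7 interval the numbers were 8, 14 and 14. None was in 3 or more libraries of its deletion, and none of 5 and 9 tested contacts was called. Those listed in 2 chromosome 7 libraries included Robo4 and Robo3, receptors of vessels and axons beside the chromosome 9 interval, with Tbrg1 at 3 and 5 PETs, and Pknox2, a homeobox gene, with Fez1 at 4 and 3. Lsp1, a leukocyte protein gene near the chromosome 7 interval, had a local contact of 51 and 54 PETs in 1 library each of F1 and G9.

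RNA was also measured for the genes in the anchor regions of the 29 chromosome 7 contacts. Of 115 genes 78 were tested, with 33 (42.3%) called higher and 28 (35.9%) lower in the chromosome 9 clones, beside 39.4% and 31.1% of all genes. At a fold of at least 2, 29.5% were higher and 7.69% lower, but 13 of the tested genes were Pcdha genes, whose shared last exons let the same reads be counted for several of them; without clustered protocadherins the shares were 15.4% and 9.23%, near the 13.7% and 8.8% of all genes. Prdm14 was at 46.4 ± 1.70 CPM in F1, 45.2 ± 1.08 in G9, 11.5 ± 0.871 in D4, 11.97 ± 0.587 in F4 and 26.5 ± 1.097 in the parental line (log2 1.96 ± 0.05, edgeR adjusted p = 1.40e-24). The parental line lay between the deletions.

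Levels of other genes in the anchor regions ranged widely, from Agrn, a basement membrane proteoglycan gene, at 275 to 364 CPM over the 4 clones, to transcription factor genes near or below 1 CPM. Sox21 was at 2.42 and 4.78 CPM in F1 and G9 and 1.28 and 1.75 in D4 and F4 (log2 1.18 ± 0.14, edgeR adjusted p = 8.39e-09), and Mn1, a coactivator gene, at 3.495 and 2.97 against 1.70 and 1.24 (log2 1.14 ± 0.14, edgeR adjusted p = 2.26e-08). Lhx2 was at 1.05, 1.60, 0.992 and 0.784 CPM (log2 0.57 ± 0.18, edgeR adjusted p = 0.00733). Hoxd13 was at 1.51, 1.40, 0.956 and 1.188 CPM and Dmrta2 at 0.261, 0.608, 0.289 and 0.252 CPM, and neither was called. At the chromosome 9 contacts Gfi1b had a mean of at most 0.191 CPM in every line (log2 -2.39 ± 0.74, edgeR adjusted p = 0.00498) and Cfap77, a cilia gene, at 1.53 and 1.62 CPM in F1 and G9 and lower in D4 and F4 (log2 0.52 ± 0.16, edgeR adjusted p = 0.00367).

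Levels of Ezh2 and of marker genes moved with the deletions as well. Ezh2 was at 182 ± 4.68 and 181 ± 0.781 CPM in F1 and G9, 203 ± 12.7 and 221 ± 11.7 in D4 and F4 and 235 ± 5.87 in the parental line (log2 -0.23 ± 0.04, edgeR adjusted p = 2.74e-05). Of 11 PRC2 subunit genes 4 (36.4%) were called higher and 5 lower, beside 39.4% and 31.1% of all genes; Epop, an accessory subunit, was at 212 and 200 CPM against 54.6 and 65.2 (log2 1.79 ± 0.09, edgeR adjusted p = 2.69e-18). Pou5f1, the defining factor of pluripotent cells, had a mean of 1004 to 1135 CPM in the lines, and 7 of 12 pluripotency markers were called higher and 4 lower. Of 13 tested feeder fibroblast markers 12 were called higher and 1, Fn1, lower; Col1a1 reached 24.4 ± 8.94 and 85.3 ± 41.6 CPM in F1 and G9 and 11.3 ± 0.894 and 11.3 ± 3.002 in D4 and F4. Summed over the 14 feeder markers, of which none was at 0, the level was 2036 to 2539 CPM in the chromosome 9 clones, 2682 to 3002 in the chromosome 7 clones and 1898 to 2252 in the parental line. Fn1 alone was at 1457 and 1499 CPM in F1 and G9, 2313 and 2187 in D4 and F4 and 1482 in the parental line. Primitive endoderm markers summed to 302 to 329, 214 to 278 and 175 to 205 CPM, with 5 of 9 called higher and 2 lower. Of the lists, 18 of 27 tested Hox genes, 41 of 75 other homeobox genes and 29 of 63 forkhead, T-box, GATA and Sox genes were called higher, and 2, 10 and 14 lower, against 39.4% higher and 31.1% lower over all genes. Their part, and that of feeder RNA, in the contact and RNA differences was not tested.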

How the data were processed

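Ezh2 ChIA-PET used chromatin cut with AluI, ligated in place, sonicated, precipitated and tagmented, per the labels' protocols; reads were aligned to mm10 with BWA, per the submitters' processing notes, and no source used here names the caller of the contact lists. The authors deposited lists of contacts with PETs as whole-number counts, and E14 peak lists with fold enrichment, a ratio, of which only the positions were used here. Their RNA libraries were stranded poly(A) libraries, deposited as read counts per gene made with HISAT2 2.1.0 and HTSeq 0.6.1, per the submitters' processing notes; no source used here gives the strand setting, and overlapping genes are uncertain.

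Here anchors were joined where they overlapped by at least 1 bp in any of 10 libraries, giving 9754 regions with a median of 3.44 kb and a maximum of 1075 kb. Contacts of each library were summed by region pair. Library values were compared by exact two-sided permutation. PETs of contacts listed in at least 4 of 8 libraries, and RNA counts in a model of all 26 RNA libraries, were fitted with edgeR 4.0.16 (TMM, quasi-likelihood, Benjamini-Hochberg) in R 4.3.3, with DESeq2 1.42.0 as an alternative. Rows naming no gene, 5.08% to 8.77% of reads without a feature, were left out. On data simulated for 2634 contacts, the contact test recovered 1.28% of 2-fold, 15.1% of 4-fold and 42.9% of 8-fold changes. Changes were planted only in contacts with higher mean PETs, so recovery at contacts with few PETs was not measured. Named contacts were those in all 4 libraries of a deletion and none of the other, those called, the members of each gene list with the most PETs, and the largest changes without overlap; named genes were those in their anchor regions and the lists. Some genes and 1 contact are not reported here. Members and gene lists were chosen with earlier results of these data known. Listed PETs are not independent molecules, and their number per library bounds what could be listed.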

Additional observations from a re-analysis of the deposited data

Results flagged for a closer look

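In 66 groups of 4 libraries examined for a value far from the others of its deletion, 5 stood out, where chance gives about 1 in 20, or 3.3. The second F4 library listed 323529 PETs, against 1157420 to 1324720 in the other chromosome 7 libraries. It also had 89.0% of PETs in contacts with an H3K27me3 peak at both anchors, against 92.8% to 93.5%, 3.39% of PETs on chromosome 8, against 4.23% to 4.38%, and 4.71% on chromosome 13, against 4.37% to 4.38%. The first F1 library had 2.60% of PETs on chromosome 3, against 2.84% to 2.88% in the other chromosome 9 libraries.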

How the results depend on the processing

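Contacts in all 4 libraries of 1 deletion and none of the other numbered 32 in all (3 chromosome 9, 29 chromosome 7). They were 89 (39 and 50) with 10 kb bins, 17 (13 for chromosome 7) with equal numbers of the strongest contacts and 13 (9 and 4) with thinned lists; with gaps of up to 5 kb merged the chromosome 9 count was 5. Leaving out 1 library, which asks for fewer libraries, gave 49 to 127 in all, 4 to 16 for chromosome 9 and 40 to 123 for chromosome 7. The 2 contacts called by PETs outside the intervals became 1 with DESeq2 size factors or merged gaps, 20 with a filter of 2 libraries, 79 with none, 0 with bins (125 at an unadjusted p under 0.05), 0 with the libraries of a clone summed (130), 49 with DESeq2 and 0 to 2 on leaving out 1 library; the cause was not tested. Single contacts kept their direction, with 528 of 572 comparisons on the same side of the threshold, 26 newly past it and 18 no longer. In RNA, 2281 of 2342 did so and 61 were lost. The span difference, on the log10 scale, was -0.49 without the second F1 library (exact p = 0.0286) and -0.49 to -0.28 on leaving out each library. The X chromosome difference, -0.00818 percentage points, ran from -0.0359 to 0.0126 and turned sign without either G9 library or the second F4 library (0.00962, 0.0126 and 0.00976). Same-numbered libraries did not deviate together (r of -0.149 to 0.0301 in contacts and -0.253 to 0.0882 in RNA), so the numbers do not pair them; with the number as a replicate block 1 contact and 13976 genes were called, and exact p was 0.111 for contacts per library, 0.111 for span and 0.889 for the X share. Limits are the 2 clones per deletion, list thresholds, anchor regions that can hold several genes, list sizes that differ between libraries and RNA depth that goes with the deletion.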
